A study of Arabidopsis thaliana with 12 samples.

Results

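The plastid thioredoxin and peroxiredoxin system was followed through 4 nuclear genes, on arrays hybridised with RNA of wild-type Arabidopsis thaliana, ecotype Wassilevskija. They are AT2G04700, the ferredoxin-thioredoxin reductase (FTR) catalytic subunit, NTRC (AT2G41680), an NADPH-dependent thioredoxin reductase, SRX (AT1G31170), sulfiredoxin, and AT3G52960, a peroxiredoxin. The genes were selected by name, as the probes annotated with exactly 1 of these loci, which gave 4 probes, 1 per gene, of 692 probes that name 1 gene and 3439 probes in all. Earlier results of these data were known when the choice was made, so it was not blind to them. In 6 samples the plants had spent 30 min in MS, a plant salt medium, with 60 mM sucrose, and in the other 6 they had been treated with water. The labels give no tissue, plant age or light condition and no time for the water treatment, and the effects of medium salts and of sucrose cannot be told apart. Nothing in the labels says that the samples are separate cultures or plants, and p-values then cover only the spread among these samples, part of which may be technical. In such bulk RNA fewer cells of a type and less RNA per cell cannot be told apart.

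Many plastid enzymes are switched on when a thioredoxin, a small protein with a reactive pair of cysteines, reduces a disulfide bond in them. Thioredoxins are themselves reduced by separate branches. In the ferredoxin-fed branch, photosystem I reduces ferredoxin in the light, and FTR, through the iron-sulfur cluster of its catalytic subunit, hands these electrons to thioredoxins. In the NADPH-fed branch, NTRC, which joins a reductase and a thioredoxin domain in a single protein, takes electrons from NADPH and can therefore work in the dark, and it is known for reducing plastid peroxiredoxins. Peroxiredoxins use such electrons to remove peroxides, and sulfiredoxin repairs peroxiredoxins whose reactive cysteine has been over-oxidised. Whether NTRC or sulfiredoxin acts on AT3G52960 was not tested, and the peroxiredoxins 2CPA (AT3G11630) and 2CPB (AT5G06290) were not listed for any probe. The comparison of the groups asks how transcripts of these branches responded to sucrose medium.

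The arrays differed in overall brightness between the groups. The median deposited intensity per array was 0.422 to 0.459 in sucrose medium and 0.171 to 0.188 in water, on a linear scale from 0 to 100 of unstated unit. Intensities were therefore taken to log2 and quantile normalised, and limma was run on the 2915 probes that had 4 or more values above 0 in sucrose medium and likewise in water. Between samples, numbers 1 and 2, 3 and 4, and 5 and 6 of a group tended to be more alike than other pairs of the group. Their Spearman correlation over all probes was 0.959 to 0.990, against 0.933 to 0.971 for the other pairs, so the ranges overlap. These 3 sets of 2 samples may be repeat measurements, on which the labels are silent. Fold changes and ratios were therefore also obtained with each set averaged, which leaves 3 values per group. Markers of green tissue, root and seed, 17 genes in all, had 0 members on probes that name 1 gene, so the tissue was not checked.

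The measured genes of the branches, 1 for each reductase, moved in opposite directions. In sucrose medium AT2G04700 of the ferredoxin-fed branch fell 3.79-fold against the rest of the array, while NTRC of the NADPH-fed branch rose 1.53-fold, SRX 2.37-fold and AT3G52960 1.83-fold. All 4 genes passed the threshold (limma, Benjamini-Hochberg adjusted p under 0.05 over 2915 probes), 3 as higher and 1 as lower. Over all tested probes 64.4% passed, 31.5% as higher and 32.9% as lower, so the number of calls does not set these genes apart. In each of the 4 genes the sucrose and water samples did not overlap, which was so for 44.3% of all tested probes, 21% with sucrose higher and 23.3% with sucrose lower.

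In the ferredoxin-fed branch, the deposited intensity of AT2G04700 had a low of 0.158, a median of 0.212 and a high of 0.239 in sucrose medium, against 0.270, 0.326 and 0.351 in water. Even the dimmest water sample was thus brighter than the brightest sucrose sample, although the arrays in sucrose medium were the brighter ones. After normalisation the log2 level was -3.00 ± 0.28 in sucrose medium and -1.08 ± 0.09 in water (SD, n = 6 each). The log2 fold change was -1.92 ± 0.12 (SE; limma, adjusted p = 6.39e-08), lower in 6 of 6 same-numbered pairs, with pair differences between -2.24 and -1.73. A gap of 1.48 on the log2 scale lay between the nearest samples of the groups. Among all tested probes only 22 had a log2 fold change below that of AT2G04700, which put it at the 0.789 percentile.

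In the NADPH-fed branch, NTRC had deposited intensities with a low of 0.416, a median of 0.437 and a high of 0.567 in sucrose medium, against 0.106, 0.116 and 0.163 in water. The groups were far apart on the deposited scale, and closer after normalisation, where the nearest samples were 0.05 apart on the log2 scale. The normalised log2 level was -1.76 ± 0.17 in sucrose medium and -2.38 ± 0.19 in water (SD, n = 6 each), which is a rise of 0.62 ± 0.11 on the log2 scale (SE; adjusted p = 0.000322 in limma). It was higher in 6 of 6 same-numbered pairs, by 0.47 to 0.87. Number 6 was the highest sample of each group, at -1.47 in sucrose medium and -2.02 in water. The change of NTRC was at the 79.2 percentile of all tested probes, with 605 probes above it.

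On the peroxide-removal side, AT3G52960 had deposited intensities with a low of 0.398, a median of 0.439 and a high of 0.485 in sucrose medium, against 0.0800, 0.0899 and 0.141 in water. Its normalised log2 level was -1.83 ± 0.14 in sucrose medium and -2.70 ± 0.31 in water (SD, n = 6 each), a rise of 0.87 ± 0.14 on the log2 scale (SE; adjusted p = 0.00012 in limma). It was higher in 6 of 6 pairs, by 0.45 to 1.28, and stood at the 86.9 percentile of all tested probes.

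SRX, the enzyme that repairs over-oxidised peroxiredoxins, was dim in water. Its deposited intensities had a low of 0.244, a median of 0.298 and a high of 0.410 in sucrose medium, against 0.0247, 0.0566 and 0.0826 in water. On this scale, where the arrays in sucrose medium were the brighter ones, the lowest sucrose sample was well above the highest water sample. After normalisation the nearest samples of the groups were only 0.10 apart on the log2 scale. The water samples spread over more than 3-fold among themselves in deposited intensity. After normalisation the log2 level was -2.36 ± 0.32 in sucrose medium and -3.61 ± 0.59 in water (SD, n = 6 each). The log2 fold change was 1.24 ± 0.25 (SE; limma, adjusted p = 0.000909), higher in 6 of 6 pairs by 0.80 to 1.85 and at the 93.6 percentile. Its SE was the largest of the 4 genes.

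**Figure D1:**
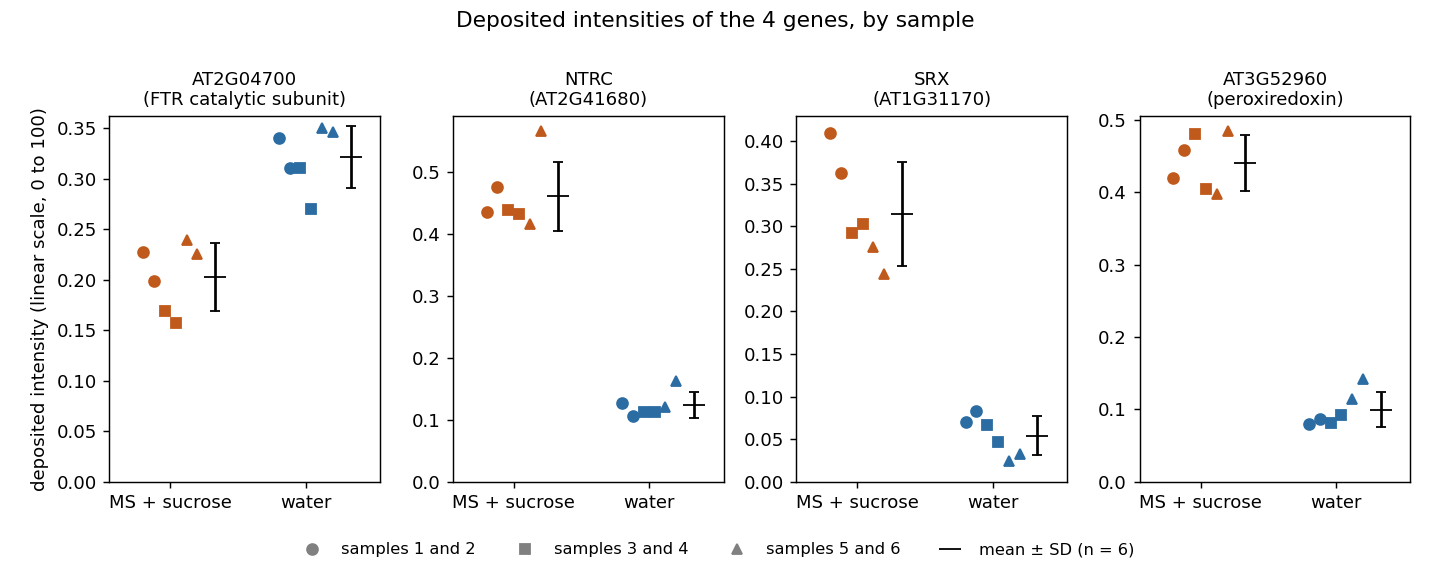
Deposited intensity (linear scale, 0 to 100, vertical axis from 0) of each gene in the 6 samples in MS with sucrose and the 6 samples in water; points are samples, their shape marks numbers 1 and 2, 3 and 4, or 5 and 6, and bars are mean ± SD. AT2G04700 averaged 0.203 in sucrose medium and 0.322 in water, NTRC 0.461 in sucrose medium and 0.124 in water, SRX 0.315 in sucrose medium and 0.0539 in water, and AT3G52960 0.441 in sucrose medium and 0.0993 in water.

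**Figure D2:**
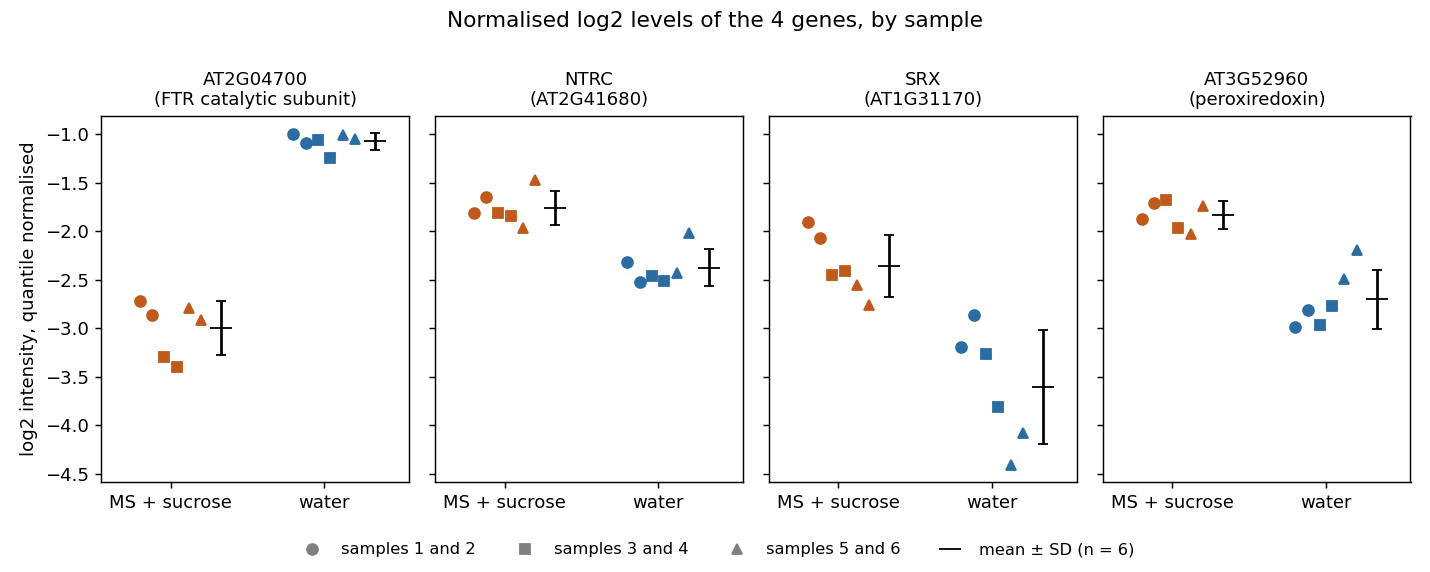
Quantile normalised log2 intensity of the same genes and samples, with mean ± SD; levels of different probes are not comparable with each other. AT2G04700 was lower in all 6 sucrose samples than in any water sample, and the other 3 genes were higher in all 6.

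Ranks within arrays gave the same directions, which is built in, since quantile normalisation sets each level by its rank among the values above 0. They are thus another view of the normalised levels and not a separate check. The place of a probe in the ranking of its own array does not depend on any scaling that keeps the order of values. AT2G04700 ranked above 20.9% to 30.6% of probes in sucrose medium and above 66.0% to 71.9% in water. NTRC ranked above 46.5% to 59.4% in sucrose medium and 34.9% to 45.5% in water, and AT3G52960 above 44.8% to 53.8% in sucrose medium and 27.1% to 41.2% in water. For SRX the ranges were 29.0% to 48.5% in sucrose medium and 16.9% to 28.8% in water, so they only just did not overlap. Of all tested probes, 19.8% had ranks that were higher in every sucrose sample than in any water sample, and 23.9% ranks that were lower.

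The size of the changes depended on the scaling. On the deposited log2 scale, with no scaling, the median change over all tested probes was 1.09, a 2.13-fold rise, and AT2G04700 was at -0.68 ± 0.12, NTRC at 1.91 ± 0.11, SRX at 2.65 ± 0.28 and AT3G52960 at 2.18 ± 0.14 (SE). Relative to that median the changes were -1.77 for AT2G04700, 0.82 for NTRC, 1.56 for SRX and 1.09 for AT3G52960. Brightness also moved with the unscaled change. With the tested probes split by brightness into 4 classes of equal size, the median unscaled change was 1.35 in the dimmest class, which held SRX, 1.40 in the next, which held the other 3 genes, and 0.18 in the brightest. The changes were therefore also set beside those of probes of like brightness, with a normalised mean over all samples within 0.5 log2 of the gene's own. For AT2G04700 there were 884 such probes, with a median log2 fold change of 0.08, of which 30.9% passed as lower, and 6 had a change at or below its own. For NTRC 185 of 863 such probes rose as much or more, for AT3G52960 96 of 805, and for SRX 42 of 486. The median changes of these probes were 0.06 for NTRC, 0.09 for AT3G52960 and 0.02 for SRX.

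**Figure D3:**
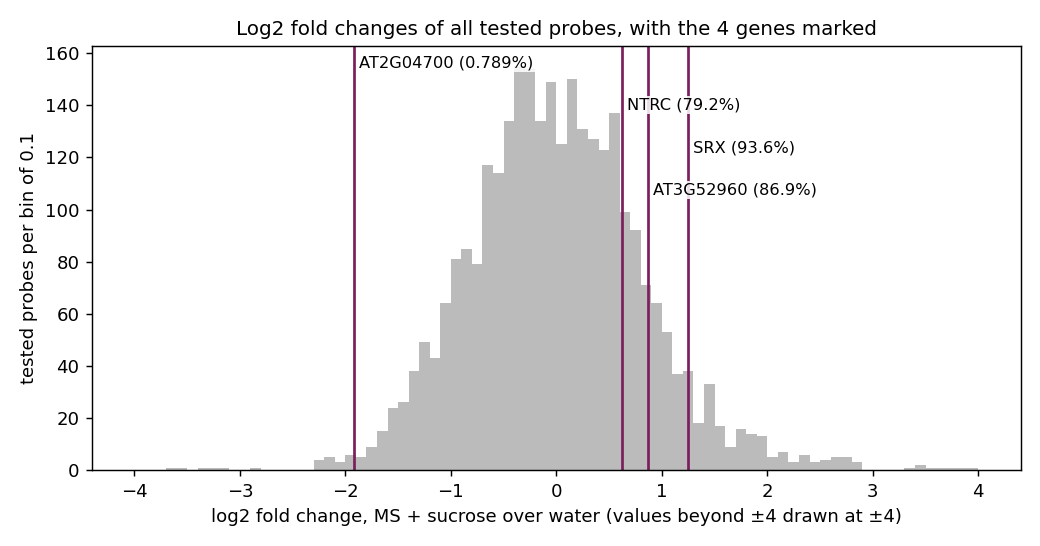
Histogram of log2 fold changes (sucrose medium over water, horizontal axis) of the 2915 tested probes, in bins of 0.1, with the 4 genes as vertical lines and their percentile in brackets. AT2G04700 lies in the lower tail at -1.92, and NTRC, AT3G52960 and SRX lie in the upper part at 0.62, 0.87 and 1.24.

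To compare the branches directly, the log2 ratio between genes was taken within each array, which cancels any factor shared by its probes. A change of such a ratio shows unequal change of the genes, not which of them moved, and a ratio alone does not compare their amounts. The ratio of AT2G04700 over NTRC, the ferredoxin-fed over the NADPH-fed reductase, lay between -1.55 and -0.82 in sucrose medium and between 0.97 and 1.43 in water. It averaged -1.237 ± 0.310 in sucrose medium and 1.302 ± 0.177 in water (SD, n = 6 each), a difference of -2.54 ± 0.15 (SE), or 5.81-fold. On the deposited intensities the difference was -2.58. The two-sided exact permutation test over samples gave p = 0.00216, the smallest it can give with 6 against 6, and p = 0.00433 after adjustment over the 6 ratios between the 4 genes. The ratio was lower in 6 of 6 same-numbered pairs. That p-value and this count were fixed once AT2G04700 was lower, and NTRC higher, in every sucrose sample than in any water sample. They are no support beyond that separation, and the ratio adds only the size of the difference.

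AT2G04700 also changed unequally to the peroxide-removal genes. Its ratio over SRX averaged -0.63 ± 0.35 in sucrose medium and 2.53 ± 0.60 in water (SD, n = 6 each), a difference of -3.16 with a 95% interval of -3.80 to -2.51 from the permutation test. Its ratio over AT3G52960 averaged -1.16 ± 0.33 in sucrose medium and 1.63 ± 0.31 in water, a difference of -2.79 with an interval of -3.20 to -2.37. For AT2G04700 over NTRC the interval was -2.87 to -2.21. The exact permutation p was 0.00216 for each (adjusted p = 0.00433). With the replicate numbers taken as pairs, an exact sign-flip test gave p = 0.0312 for each of these 3 ratios, the smallest that 6 pairs allow, and adjusted p = 0.0625, so they did not pass in that test. With 3 averaged values per group the smallest possible p is 0.1, which each of the 3 ratios reached (adjusted p = 0.2). These smallest p-values likewise follow from the full separation of the groups in each single gene and are no further support.

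The 3 higher genes were not clearly told apart from each other. The ratio of NTRC over SRX differed by -0.63 between sucrose medium and water (95% interval -1.38 to 0.10; exact permutation p = 0.0909, adjusted p = 0.109), lower in 5 of 6 pairs. The ratio of SRX over AT3G52960 differed by 0.37 (interval -0.48 to 1.27; exact permutation p = 0.348, adjusted p = 0.348), higher in 4 of 6 pairs, and was 0.17 without water replicate 5 and likewise without water replicate 6. The ratio of NTRC over AT3G52960 differed by -0.25 (interval -0.49 to -0.02; exact permutation p = 0.0346, adjusted p = 0.0519), lower in 5 of 6 pairs. That ratio lay close to the threshold and passed it on the deposited scale, at -0.27 (adjusted p = 0.026), with sucrose replicate 6 left out (adjusted p = 0.039) and with water replicate 5 left out (adjusted p = 0.0162). NTRC over SRX passed without water replicate 2 (-0.80, adjusted p = 0.0487). These intervals are wide, and the tests do not show that the 3 genes rose alike.

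**Figure D4:**
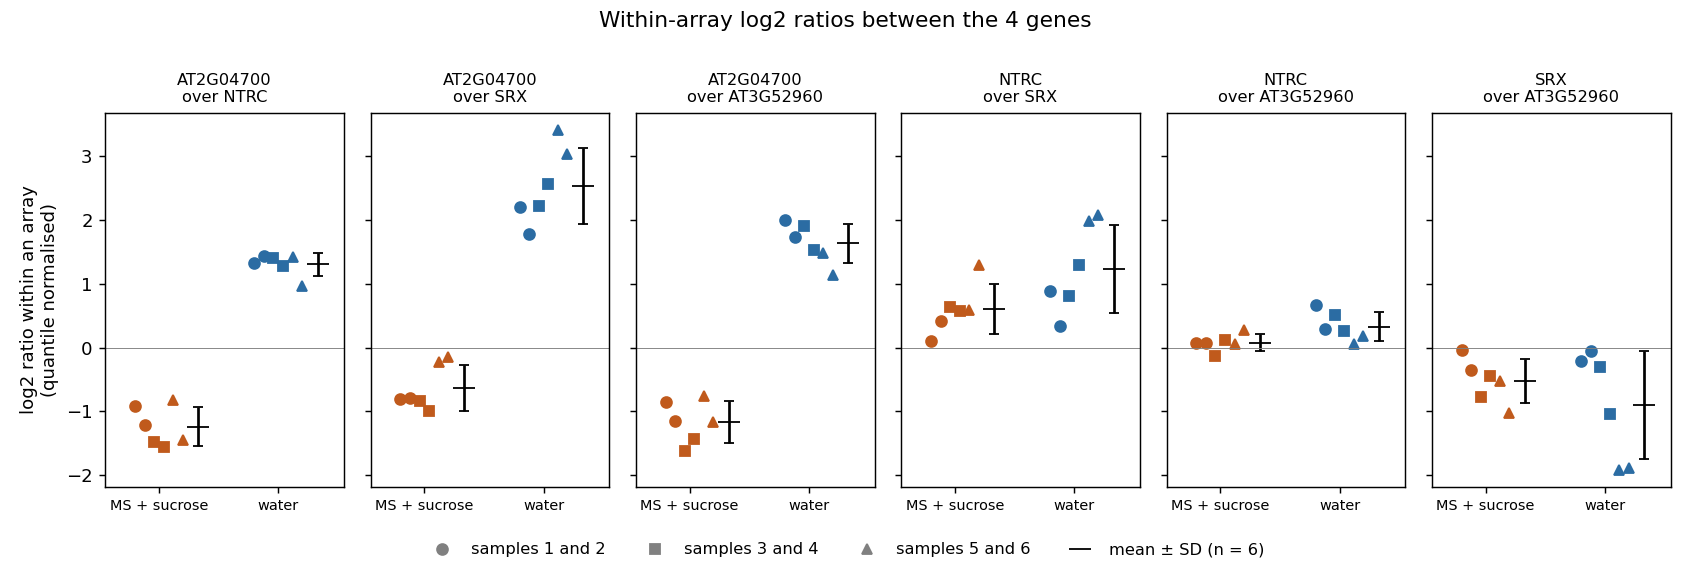
Log2 ratio within each array for the 6 pairs of genes (vertical axis, quantile normalised), with sucrose samples left and water samples right, mean ± SD, and point shapes for the sample numbers. The 3 ratios with AT2G04700 on top lie below 0 in all sucrose samples and above 0 in all water samples, and the other 3 ratios overlap between the groups.

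The genes varied among samples of a group in different ways. SRX was lowest in numbers 5 and 6 of each group: its log2 level averaged -1.99 in sucrose samples 1 and 2, -2.43 in 3 and 4 and -2.66 in 5 and 6, and -3.03, -3.54 and -4.25 in the same numbers of water. The averages of the sets thus spread over 0.67 in sucrose medium and 1.22 in water, while samples within a set differed by at most 0.21 in sucrose medium and 0.54 in water. AT3G52960 ran the other way in water, at -2.90 in samples 1 and 2, -2.87 in 3 and 4 and -2.35 in 5 and 6, but stayed between -1.80 and -1.88 in sucrose medium. Its deviations from the group means ran with those of NTRC (Pearson r = 0.656) and against those of SRX (r = -0.597), over 12 samples in which both genes come from the same array and samples of a set are alike.

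The directions held within each set. With the groups fully separated in each gene, these directions and the pair counts of the single genes were fixed. They are no further support, and the sets add only the sizes of the differences. The difference between sucrose medium and water in AT2G04700 was -1.75 for numbers 1 and 2, -2.20 for 3 and 4 and -1.82 for 5 and 6. For NTRC it was 0.69, 0.66 and 0.51, and for SRX 1.04, 1.103 and 1.59. For AT3G52960 it was 1.104, 1.04 and 0.46, so numbers 5 and 6 showed the smallest rise of AT3G52960 beside the largest of SRX. These numbers were grouped from the data, and the differences among sets were not tested.

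Little else of the pathway could be read on probes that name 1 gene. Of 81 further loci listed for ferredoxins and their reductases, plastid thioredoxins, peroxide and superoxide removal, and plastid enzymes known as thioredoxin targets, 3 were tested, 10 were only on probes with several genes, 67 were not listed, and 1, SBPASE (AT3G55800), sedoheptulose-bisphosphatase of the Calvin cycle, is listed at 0 in all 12 samples. None of the 3 tested loci passed as higher and 1 passed as lower, with a median log2 fold change of -0.17 against -0.03 over all tested probes, of which 31.5% passed as higher and 32.9% as lower, so this count does not set them apart. The tested loci were all thioredoxin targets, and 0 of 60 loci of the other lists, FTR's second subunit and the thioredoxins themselves among them, were tested.

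PRK (AT1G32060), phosphoribulokinase of the Calvin cycle, an enzyme activated by thioredoxin, fell. Its deposited intensities lay between 0.975 and 1.39 in sucrose medium and between 1.54 and 2.46 in water, with no overlap, and its log2 level was -0.08 ± 0.24 in sucrose medium and 0.96 ± 0.24 in water (SD, n = 6 each; limma, log2 fold change -1.05 ± 0.14, SE; adjusted p = 2.65e-05). With median centring PRK was at -1.94 and without scaling at -0.68. CHLM (AT4G25080), the methyltransferase of chlorophyll synthesis, was at -1.79 ± 0.10 in sucrose medium and -1.63 ± 0.25 in water (limma, adjusted p = 0.221), and was above 0 without scaling, at 1.12 against the median of 1.09. AT5G58330, NADP-dependent malate dehydrogenase, which uses surplus NADPH of the plastid, was at -2.43 ± 0.44 in sucrose medium and -2.79 ± 0.63 in water (limma, adjusted p = 0.284), and passed without scaling, at 1.72. Its log2 fold change was 0.36, and 0.12 without water replicate 5. CCS (AT1G12520), the copper chaperone of copper/zinc superoxide dismutase, whose name matched the redox terms searched, rose by 0.38 ± 0.15 on the log2 scale (SE; adjusted p = 0.039 in limma), at -3.16 ± 0.15 in sucrose medium and -3.54 ± 0.34 in water. That call was lost with averaged sets (limma, adjusted p = 0.0832), with 0.05 added before log2 (adjusted p = 0.199) and with a trended and robust variance (adjusted p = 0.0889). It was also lost without any 1 of sucrose replicates 1, 2, 3, 4 and 6 or water replicates 3, 5 and 6, where the adjusted p reached 0.0839, and the direction turned with the straight-line scaling, at -0.39.

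The genes whose samples deviated most like each of the 4 were looked up among 563 other genes with a value in all 12 samples, by the Pearson correlation of deviations from the group means, a measure that leaves out the difference between groups. Both genes come from the same arrays and samples of a set are alike, so the correlations are descriptions. Over all tested probes 31.5% passed as higher and 32.9% as lower, so the calls named here do not set these genes apart. For AT2G04700 they were PSBY (AT1G67740), a photosystem II subunit (r = 0.924), AT5G50350 (r = 0.901) and AT3G14890 (r = 0.858), and all 3 also fell, with log2 fold changes of -0.79, -0.38 and -1.34 (limma; AT5G50350 did not pass with averaged sets or cyclic loess, adjusted p = 0.11 and 0.183, nor AT3G14890 without scaling, adjusted p = 0.516). For SRX they were AT3G02690 (r = 0.956), AT1G07970 (r = 0.891) and AT3G26630 (r = 0.870), with log2 fold changes of -0.20, 0.02 and -0.29, of which the last passed as lower, though not with averaged sets or cyclic loess (limma, adjusted p = 0.139 and 0.466). After quantile normalisation none of these 3 passed as higher, unlike SRX; without scaling AT3G02690 did, at 0.81 against the median of 1.09. AT3G02690 passed as lower with a fixed block for the replicate number (limma, adjusted p = 0.0463), with the set as a block (adjusted p = 0.0175) and with median centring (-0.45, adjusted p = 0.0111); averaging the sets left it short of the threshold (adjusted p = 0.38). For NTRC they were AT3G50130, AT1G79220 and AT5G14590 (r = 0.747 to 0.758), with 0.32, 1.102 and -0.45, where AT1G79220 passed as higher and AT5G14590 as lower, though AT5G14590 not with averaged sets or cyclic loess (limma, adjusted p = 0.0576 and 0.0748). AT3G50130 (limma, adjusted p = 0.0806) passed as higher with the replicate number as a random block (adjusted p = 0.0414), with median centring (adjusted p = 0.0303), without scaling (1.65) and without water replicate 6 (0.45, adjusted p = 0.00306), and was at -0.01 with the straight line. For AT3G52960 they were AT4G24090, AT5G22340 and LpxA (AT4G29540) (r = 0.741 to 0.783), with 1.09, -0.65 and 1.91, all past the threshold. Size and order of the correlations depended on the scaling. With median centring those with AT2G04700 were 0.826 for PSBY, 0.835 for AT5G50350 and 0.769 for AT3G14890. Those with SRX were 0.952 for AT3G02690, 0.956 for AT1G07970 and 0.873 for AT3G26630, and AT5G14590 was at 0.566 with NTRC. Without scaling AT5G14590 and AT5G22340 were above 0, at 0.18 and 0.32.

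**Figure D5:**
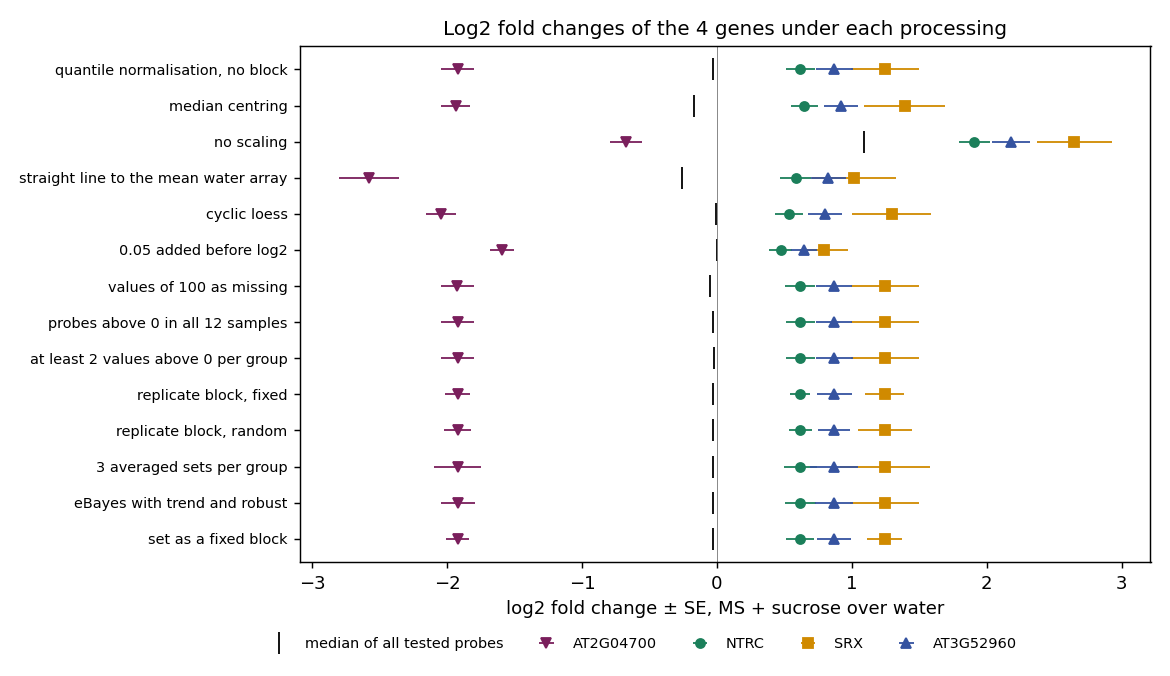
Log2 fold change ± SE (sucrose medium over water, horizontal axis) of the 4 genes under quantile normalisation without a block and 13 other ways of processing, with the median of all tested probes as a black bar. AT2G04700 lies below 0 and the other genes above 0 in each; the lowest and highest values of AT2G04700 are -2.58 with the straight line and -0.68 without scaling.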

How the data were processed

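RNA abundance was measured on 12 arrays, 6 per group, grouped and numbered by the sample titles. The deposited table gives an intensity for each probe in each sample; the background correction, scaling and spot averaging that the authors used are not given in the sources used here. A 0 was treated as missing, since the table does not mark signals below background. Log2 intensities were quantile normalised and tested in R 4.3.3 by the two-sided moderated test of limma 3.58.1, without a block, with Benjamini-Hochberg adjustment over 2915 probes. Values of 100 are the top of the scale. The number of arrays limits the precision.

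Of 3439 probes, 692 named 1 gene, 870 several and 1877 were not listed in the platform annotation, which can be old; 690 of the 692 matched a locus of TAIR10.1. The names of AT2G04700 and AT3G52960 came from the choice of genes. Ratios between genes were tested by two-sided exact permutation over 924 regroupings, and their 95% intervals hold the shifts that this test does not reject. The members and lists were chosen with earlier results of these data known. Named genes were the 4 genes, tested genes of the pathway lists or of matching RefSeq names, and 3 genes of like deviations for each.

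Same-numbered samples of the groups deviated together (r = 0.280 to 0.450 in 6 of 6 pairs, over 2805 probes, against -0.290 to 0.045 for numbers of other sets). On this evidence alone the numbers were taken as pairs in the pair counts, the sign-flip test and the alternatives with a replicate block. The main limma fit and the permutation tests of ratios did not use the pairs. Numbers of the same set of 2 correlated at 0.162 to 0.282. The straight-line alternative matched each array's quartiles to those of the mean water array. The limma fit was tried on simulated data with independent noise, without sets, pairs or differences in array brightness, and the exact tests on made-up values. Normalisation was not part of that trial. Python 3.11.15 with matplotlib 3.10.9 drew the figures.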

Additional observations from a re-analysis of the deposited data

Results flagged for a closer look

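The log2 ratio of AT2G04700 over NTRC in water replicate 6 was 0.97, below the next lowest water sample at 1.27 by 65.3% of the group's range. AT5G58330, NADP-dependent malate dehydrogenase, had a log2 level of -3.99 in water replicate 5, below the next lowest at -2.91 by 63.9% of the range. These were 2 of 28 groups of samples examined for a lone sample, and chance marks about 1 in 20. Without water replicate 6 the difference in the ratio stayed below 0 and past the threshold. Without water replicate 5 the log2 fold change of AT5G58330 was 0.12, against 0.36 with all samples, and did not pass either way (limma, adjusted p = 0.626 and 0.284).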

How the results depend on the processing

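The 4 fold changes kept their direction and side of the threshold under 13 alternatives and 12 omissions of 1 sample. Alternatives that changed only the probe filter, the block, the averaging of sets or the variance model left the estimates as they were. In those only the side of the threshold could change. With the groups fully separated, leaving out 1 sample could hardly turn a direction. Over the alternatives AT2G04700 ran from -2.58 to -0.68, NTRC from 0.47 to 1.91, SRX from 0.79 to 2.65 and AT3G52960 from 0.65 to 2.18, with the extremes set by scaling or by 0.05 added before log2; with 1 sample left out the ranges were -1.98 to -1.85, 0.56 to 0.69, 1.07 to 1.39 and 0.81 to 0.97. With averaged sets the highest adjusted p was 0.0231 (SRX, limma). With the replicate number as a block 2024 probes passed, and all 4 genes did. The probes past the threshold numbered 1366 with averaged sets to 2380 without scaling, and 1794 to 1845 with 1 sample left out; of them 90.5% were higher without scaling, 40.0% with median centring and 37.3% with the straight line, against 48.9% with quantile normalisation.

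The ratios of AT2G04700 over NTRC, SRX and AT3G52960 (-2.54, -3.16 and -2.79) missed the threshold after adjustment with the replicate numbers as pairs and with averaged sets, where few regroupings exist (values in the report); with 1 sample left out they ran from -2.64 to -2.49, -3.30 to -2.97 and -2.89 to -2.71. NTRC over AT3G52960 passed with median centring and without scaling (-0.27 in each) and with cyclic loess (-0.27, adjusted p = 0.0357, exact permutation), and ran from -0.30 to -0.18 with 1 sample left out; NTRC over SRX ran from -0.80 to -0.45 and SRX over AT3G52960 from 0.17 to 0.54. The cause was not tested.

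Among other genes, AT1G07970 turned to -1.51 with median centring, -0.25 without scaling and -1.22 with the straight line. CCS turned to -0.39 with the straight line. Without scaling AT3G02690, CHLM, AT5G14590 and AT5G22340 turned to 0.81, 1.12, 0.18 and 0.32, where the median of all probes was 1.09. Signal over background could not be judged, which limits the dim probes, SRX in water first. By rank within arrays AT2G04700 in sucrose medium (20.9% to 30.6%) stood near SRX in water (16.9% to 28.8%), so the limit also bears on the size of its fall.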
